A study of Mus musculus with 4 samples.

Results

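In gonadal white adipose tissue (gWAT) of mice fed a high-fat diet (HFD), 9 genes of insulin signalling and glucose uptake were compared between mice lacking Dnmt1 in adipocytes (AD1KO) and floxed controls (fl/fl). The genes were Insr, Irs1, Irs2, Akt2, Pik3r1, Slc2a4, Tbc1d4, Foxo1 and Pdk4, taken by exact symbol from the 17335 genes of the expression table. All 9 were among the 15839 genes with at least 0.1 FPKM (fragment counts divided by transcript length and library size) in 1 or both libraries. The level of Slc2a4, the insulin-responsive glucose transporter GLUT4, was 1.77-fold higher in AD1KO, that of Irs2 1.68-fold and that of Foxo1 1.5-fold. The levels of the other 6 genes lay 1.18-fold to 1.37-fold above those of fl/fl, short of the fold that counted as a change.

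Both groups were female, carried the floxed Dnmt1 allele, and had been on a diet with 60% of calories from fat for 18 weeks. The fl/fl mice were littermates with intact Dnmt1. In AD1KO mice, Cre recombinase under the adiponectin promoter removed the floxed part of Dnmt1, the maintenance DNA methyltransferase, from adipocytes and left it in the other cells of the fat pad. Age was not given in the sources used here. RNA of 4 animals was pooled in equal amounts for each group, so each group was 1 library and differences between animals could not be measured. The intervals given below are 95% intervals that cover counting error only, and no p-value was computed. Bisulfite libraries of the same series, from low-fat and high-fat diet, were not analysed here.

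The depth was estimated at 17690000 fragments in fl/fl and 17520000 in AD1KO. The targeted gene, Dnmt1, stood at 6.99 FPKM in fl/fl and 3.33 FPKM in AD1KO, from about 641 and 302 reads, with a log2 ratio of -1.07 (-1.27 to -0.87). The whole tissue was sequenced, so the Dnmt1 reads also come from cells that kept the gene, and the value covers the whole transcript, not the deleted exons alone. Macrophage markers, with a median log2 ratio of -0.92, and T and NK cell markers, with -1.75, were lower in the same library, so the Dnmt1 value by itself does not check the labels. Ratios are AD1KO over fl/fl on the log2 scale of FPKM plus 0.01, and a gene was counted as higher or lower at 0.5 or more in size, the limit the study used, which is 1.41-fold.

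Insulin binds its receptor, a tyrosine kinase, which phosphorylates insulin receptor substrate proteins. These recruit phosphatidylinositol 3-kinase (PI3K), whose lipid product activates the kinase Akt. In adipocytes Akt phosphorylates the Rab GTPase-activating protein TBC1D4, also called AS160, so that vesicles carrying GLUT4 reach the plasma membrane and glucose enters the cell, and it keeps the transcription factor FoxO1 out of the nucleus.

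The promoters of Irs2 and Foxo1 are shown because these genes passed the limit and because Dnmt1 acts on CG dinucleotides. Insr and Slc2a4 have no entry in the promoter table used. The sequences are the bases just before the RefSeq start on build GRCm38.p6, written 5′ to 3′ on the gene's own strand, with each CG in capitals. The Irs2 stretch is chr8:11008930-11009179 on the minus strand and the Foxo1 stretch is chr3:52268087-52268336 on the plus strand.
Irs2: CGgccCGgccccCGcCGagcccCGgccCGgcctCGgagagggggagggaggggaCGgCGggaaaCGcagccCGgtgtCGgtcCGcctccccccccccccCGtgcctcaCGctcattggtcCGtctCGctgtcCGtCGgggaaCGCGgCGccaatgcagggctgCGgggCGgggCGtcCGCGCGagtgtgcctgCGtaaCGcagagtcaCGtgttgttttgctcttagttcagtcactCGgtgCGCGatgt
Foxo1: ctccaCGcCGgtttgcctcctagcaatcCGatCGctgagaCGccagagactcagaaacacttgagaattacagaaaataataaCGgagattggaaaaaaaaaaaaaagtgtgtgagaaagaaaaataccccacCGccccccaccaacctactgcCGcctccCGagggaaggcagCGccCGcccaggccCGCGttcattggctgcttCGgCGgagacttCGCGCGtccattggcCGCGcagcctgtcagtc
The Irs2 stretch held 34 CG dinucleotides and the Foxo1 stretch 20. In the whole window of 300 bases, which reaches 50 bases past the start, Irs2 had 41 CG, a number that 3.46% of 32851 promoter windows reached, and Foxo1 had 31, which 10.6% reached. The median window held 7. The window of Irs1 had 28, those of Pdk4 and Tbc1d4 had 12 each, and the alternative starts of Pik3r1 and Akt2 ranged from 0 to 34, so the 2 genes above were not alone in their CG content. The letters GTAAACA, a core bound by FoxO proteins, occurred on neither strand of the 11 windows held by 7 of the 9 genes, against 3.65% of all windows. Letters this rare would often be absent from 11 windows, so nothing is read from the absence. No methylation was measured at these sequences here.

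All 9 genes had log2 ratios above 0, as had 45.3% of the tested genes. The ratios ran from 0.24 to 0.82 with a median of 0.33, against -0.04 for all tested genes. Irs2, Slc2a4 and Foxo1 were higher, 3 of 9, where 14.3% of all tested genes were higher, and 0 of the 9 were lower, where 19.1% were. The interval lay above 0 for all 9 genes, against 21.6% of tested genes, and wholly above 0.5 for Slc2a4 alone, against 4.19%. These intervals narrow with the number of reads, and the 9 genes had between 240 and 10480 reads over both libraries. Foxo1, at 0.58, and Irs1, at 0.45, stood just inside and just outside the limit.

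**Figure D1:**
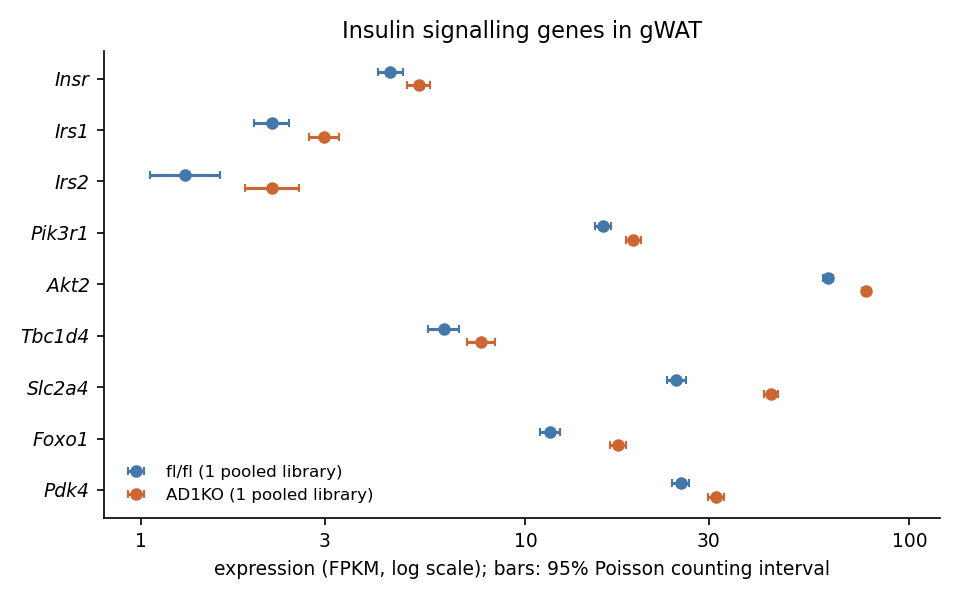
Levels of the 9 insulin signalling genes in FPKM on a log axis, in the fl/fl and the AD1KO library, with exact 95% Poisson intervals for counting error. The AD1KO point lies to the right of the fl/fl point for each gene, from Irs2 at 1.30 and 2.19 FPKM to Akt2 at 61.5 and 77.1 FPKM.

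The first step of the pathway comprised the receptor and its adaptors. Insr, the insulin receptor (gene 16337, mm9 chr8:3150922-3279617, minus strand), stood at 4.45 FPKM in fl/fl and 5.27 FPKM in AD1KO, from about 729 and 855 reads. The log2 ratio of 0.24 (0.10 to 0.39) was the smallest of the 9, and the upper end of the interval stayed under the limit. Irs1 (gene 16367, chr1:82229676-82287991, minus strand), a substrate that carries the signal to PI3K, stood at 2.19 FPKM in fl/fl and 2.99 FPKM in AD1KO, with a log2 ratio of 0.45 (0.25 to 0.65), so that counting error alone spanned the limit, and 0.53 with upper-quartile scaling. Irs2 (gene 384783, chr8:10986980-11008458, minus strand), its paralog, was at 1.30 and 2.19 FPKM, with a log2 ratio of 0.75 (0.36 to 1.14). Irs2 had the fewest reads of the 9 genes, about 90 and 150, and the widest interval, whose lower end also lay under the limit. With a pseudocount of 1 FPKM in place of 0.01 its log2 ratio was 0.47, short of the limit.

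PI3K and Akt form the next step. Pik3r1 (gene 18708, chr13:102450716-102538172, minus strand), which encodes the p85α regulatory subunit of PI3K, stood at 15.9 FPKM in fl/fl and 19.1 FPKM in AD1KO. Its log2 ratio was 0.26 (0.16 to 0.36). Akt2 (gene 11652, chr7:28376571-28425845, plus strand), the Akt isoform most tied to glucose uptake in fat and muscle, was the most abundant of the 9 genes in both libraries. It stood at 61.5 and 77.1 FPKM, from about 4673 and 5807 reads, and its log2 ratio of 0.33 (0.27 to 0.38) had the narrowest interval. Neither gene reached the limit anywhere within its interval.

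Slc2a4 and Tbc1d4 act at the step of glucose uptake. Slc2a4 (gene 20528, chr11:69756045-69761690, minus strand) stood at 24.7 FPKM in fl/fl and 43.7 FPKM in AD1KO, from about 1182 and 2068 reads. The log2 ratio was 0.82 (0.72 to 0.93), and 7.58% of the tested genes had a larger one. Tbc1d4 (gene 210789, chr14:101841577-102008408, minus strand), the brake on GLUT4 vesicles that Akt releases, was at 6.13 and 7.66 FPKM, with a log2 ratio of 0.32 (0.14 to 0.50). The transporter thus differed by more than the regulator of its vesicles, and their intervals did not overlap.

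Foxo1 and Pdk4 stand at the transcriptional and metabolic end of the pathway. Foxo1 (gene 56458, chr3:52072259-52154031, plus strand), the factor that insulin restrains, stood at 11.6 FPKM in fl/fl and 17.4 FPKM in AD1KO, with a log2 ratio of 0.58 (0.47 to 0.69) whose lower end lay just under the limit. Pdk4 (gene 27273, chr6:5433351-5446309, minus strand), a kinase that shuts off pyruvate dehydrogenase and a known FoxO1 target, was at 25.4 and 31.4 FPKM, with a log2 ratio of 0.30 (0.20 to 0.40). Foxo1 passed the limit and Pdk4 did not, and other FoxO targets are given further on.

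In fl/fl the order of levels per length was Akt2, Pdk4, Slc2a4, Pik3r1, Foxo1, Tbc1d4, Insr, Irs1 and Irs2. Pdk4 and Slc2a4, at 25.4 and 24.7 FPKM, were the only neighbours in that order whose intervals overlapped. In AD1KO Slc2a4 stood above Pdk4, at 43.7 against 31.4 FPKM, with intervals apart, and no other gene changed its place.

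Markers of the cell types in the fat pad moved along with these differences. All 12 adipocyte markers, among them Adipoq and Plin1, had ratios above 0, 9 of the 12 were higher, their median log2 ratio was 0.56, and their summed level went from 20169 to 30873 FPKM. Pparg is in that list and also among the factors acting on Slc2a4 and Pdk4 below. Of the macrophage markers 11 of 12 were lower, with a summed level of 4264 FPKM in fl/fl and 2085 FPKM in AD1KO, as were 10 of 10 T and NK cell markers (122.9 and 39.1 FPKM) and 4 of 6 B cell markers (89.1 and 58.8 FPKM). In bulk tissue, fewer cells of a type and less RNA per cell cannot be told apart. Stromal markers had 1 higher and 2 lower of 7 (1797 and 1731 FPKM), endothelial markers 1 higher of 6 (77.9 and 93.2 FPKM) and epithelial markers 1 higher and 2 lower of 6 (36.7 and 49.0 FPKM). Of the skeletal muscle markers, another tissue rich in Slc2a4, 5 of 8 were tested, 1 being higher and 3 lower (45.8 and 41.9 FPKM), most of it Acta1, and the myosins Myh1, Myh2 and Myh4 were at 0.03 FPKM or less. The muscle markers called higher or lower had 22 reads or fewer in each library, and the intervals of all 5 tested held 0. No listed marker was at 0.

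Set against the adipocyte markers, the 9 genes lost their common direction. With the adipocyte markers' median placed at 0, the log2 ratio of Slc2a4 was 0.26 (0.16 to 0.37), that of Irs2 0.19 (-0.20 to 0.58), and that of Foxo1 0.02 (-0.09 to 0.13). Irs1 was at -0.11 (-0.31 to 0.10), and Akt2, Tbc1d4, Pdk4, Pik3r1 and Insr lay between -0.23 and -0.32 with intervals wholly below 0. On that scale 0 of the 9 genes passed the limit, Slc2a4 being the only one with an interval wholly above 0. The scale moves every gene alike, and the median of all tested genes then lay at -0.60, with 817 genes higher and 9490 lower, so that 7.93% of the calls were higher ones, against 42.8% before. The part of cell makeup in the 9 ratios was not tested.

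**Figure D2:**
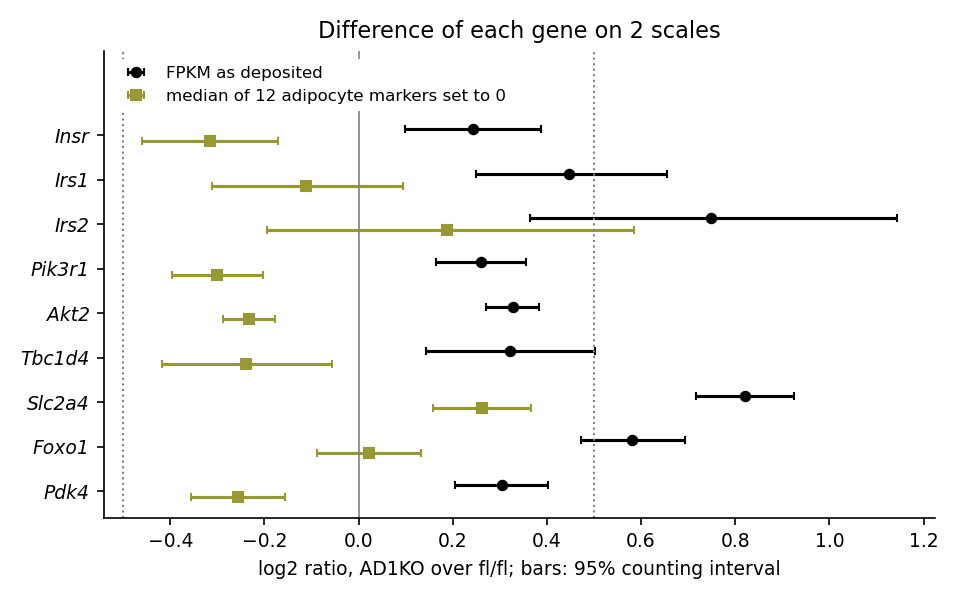
Log2 ratio of AD1KO over fl/fl for the 9 genes on the deposited FPKM scale (circles) and with the median of the 12 adipocyte markers set to 0 (squares), with 95% intervals for counting error and dotted lines at 0.5 and -0.5. Irs2, Slc2a4 and Foxo1 lie past 0.5 as circles, no gene does as a square, and Slc2a4 alone has both intervals wholly above 0. The intervals of the squares take the markers' median as fixed and leave out the spread of the markers.

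A ratio of 2 genes within a library does not depend on how the libraries were scaled. It can still differ with the cell makeup of the tissue, and that part was not tested. Each gene was set beside a paralog or partner, 12 pairs in all. The ratio of Akt2 to Akt1 went from 0.911 in fl/fl to 1.64 in AD1KO, a log2 change of 0.85 (0.75 to 0.94). Akt1, the widely expressed isoform, was lower, at 67.5 and 47.1 FPKM, so that the more abundant of the pair was Akt1 in fl/fl and Akt2 in AD1KO. Slc2a4 to Slc2a1, the transporter of basal uptake, went from 4.17 to 9.45, a log2 change of 1.18 (0.89 to 1.48). Slc2a1 itself was at 5.93 and 4.62 FPKM, with a log2 ratio of -0.36 (-0.63 to -0.09), short of the limit. Tbc1d4 to its paralog Tbc1d1 went from 1.05 to 2.11, a change of 1.01 (0.73 to 1.29). Tbc1d1 was lower, at 5.85 and 3.63 FPKM, while Tbc1d4 itself did not pass the limit. Foxo1 to Foxo3 went from 2.39 to 3.82, a change of 0.68 (0.48 to 0.89).

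Other pairs moved less. Irs1 to Irs2 was at 1.68 in fl/fl and 1.37 in AD1KO, which is a log2 change of -0.30 (-0.74 to 0.14), and Insr to Igf1r, the related receptor of insulin-like growth factor, was at 2.53 and 3.01, a change of 0.25 (-0.03 to 0.53). The intervals of both held 0. The regulatory subunit Pik3r1 to the catalytic Pik3ca changed by 0.20 (0.03 to 0.36), and to the regulatory Pik3r2 by 0.17 (0.00 to 0.34). Pdk4 to Pdk2 was at 1.01 and 0.939, a change of -0.10 (-0.26 to 0.06). Against adipocyte genes, Slc2a4 to Adipoq, the gene of adiponectin, was at 0.0129 and 0.0132, a change of 0.03 (-0.08 to 0.13), and Slc2a4 to Plin1, a lipid droplet protein, went from 0.101 to 0.122, a change of 0.28 (0.16 to 0.39). The interval against Adipoq held 0, and that against Plin1 lay above it. In all, 8 of the 12 intervals lay wholly above 0, none lay wholly below, and 4 held 0. The share among other pairs of genes was not computed, so the count has no background. The first gene of every pair had a log2 ratio above 0 by itself, while the median tested gene lay at -0.04. Set against a gene at that median, every pair would have changed upward. The pairs were also not independent, since some shared Slc2a4 or Pik3r1. Hk2 to Hk1, given further on, held none of the insulin signalling genes.

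**Figure D3:**
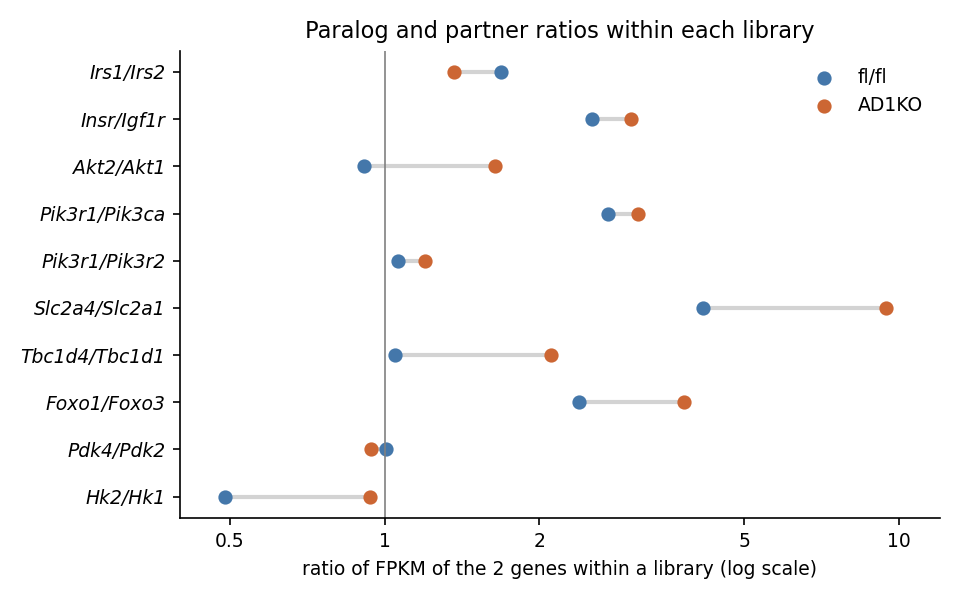
Ratio of FPKM between paired genes within each library on a log axis, fl/fl in blue and AD1KO in orange, for 10 of the pairs. Akt2 to Akt1 crosses from 0.911 to 1.64, Slc2a4 to Slc2a1 goes from 4.17 to 9.45, and Pdk4 to Pdk2 stays close to 1 in both libraries.

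The wider pathway was described by 15 lists. Counting each gene once, 163 genes were tested, 23 of them higher and 18 lower, with a median log2 ratio of 0.08, beside the 14.3% higher and 19.1% lower among all tested genes. Without the 9 genes it was 154 genes, 20 higher and 18 lower, and a median of 0.04. The same 14.3% and 19.1% are the background for the counts of each list below. The balance varied with scaling, which moves every gene alike. By trimmed means 27 of the 163 were higher and 17 lower, beside 2512 and 2792 of the 15839 tested genes. By upper quartile 31 of the 163 were higher and 16 lower, beside 2788 and 2599 of all tested genes. With the adipocyte markers' median at 0, 3 of the 163 were higher and 78 lower, with a median of -0.48, so most genes given below as higher are not higher on that scale.

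Among 12 receptors and adaptors 3 were higher and 2 lower, with a median of 0.22. Irs3, a rodent substrate found mainly in fat, stood at 28.3 FPKM in fl/fl and 41.3 FPKM in AD1KO, with a log2 ratio of 0.55, and was far above Irs1 and Irs2 in level. Grb2, which links the receptor to the Ras and MAPK branch, fell by 0.65 on the log2 scale, from 64.1 to 40.8 FPKM, and Cbl, a ubiquitin ligase, fell by 0.62, from 6.27 to 4.09 FPKM. The adaptors thus moved both ways.

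Of 9 PI3K subunits 0 were higher and 3 lower, with a median of 0.06. Pik3cd, a catalytic subunit found mainly in leukocytes, fell by 1.27 (15.4 to 6.36 FPKM), and Pik3r5, a regulatory subunit of the leukocyte enzyme, fell by 1.25 (12.7 to 5.33 FPKM). Pik3r6, its relative, fell by 0.80. Leukocyte markers were lower in the same library, as given above, and their part in these values was not tested. Of 9 genes of the Akt and mTORC2 step, 1 was higher and 2 lower. Prr5, a subunit of mTORC2, was at 16.0 and 23.9 FPKM, with a log2 ratio of 0.57.

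Of 15 inhibitors of the pathway 6 were lower and 1 higher, with a median of -0.24. Among all tested genes 19.1% were lower and 14.3% higher. Socs1, a suppressor of cytokine and insulin signalling, fell by 2.25 (11.7 to 2.45 FPKM, about 234 and 49 reads), and Socs3, of the same family, fell by 1.12 (11.02 to 5.06 FPKM). Ptpn1, the phosphatase that removes phosphate from the insulin receptor, fell by 0.84, from 24.7 to 13.8 FPKM. Inpp5d, a lipid phosphatase of blood cells known as SHIP1, fell by 1.11, and Enpp1, an inhibitor of the receptor, fell by 0.92, from 1.62 to 0.85 FPKM. The remaining genes past the limit were Dok1, an adaptor that dampens tyrosine kinase signals, which fell by 0.86, and Ptprf, a receptor phosphatase, whose levels were 2.35 and 3.68 FPKM. Several of these genes are also expressed in leukocytes, whose markers were lower too, and that was not separated here.

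**Figure D4:**
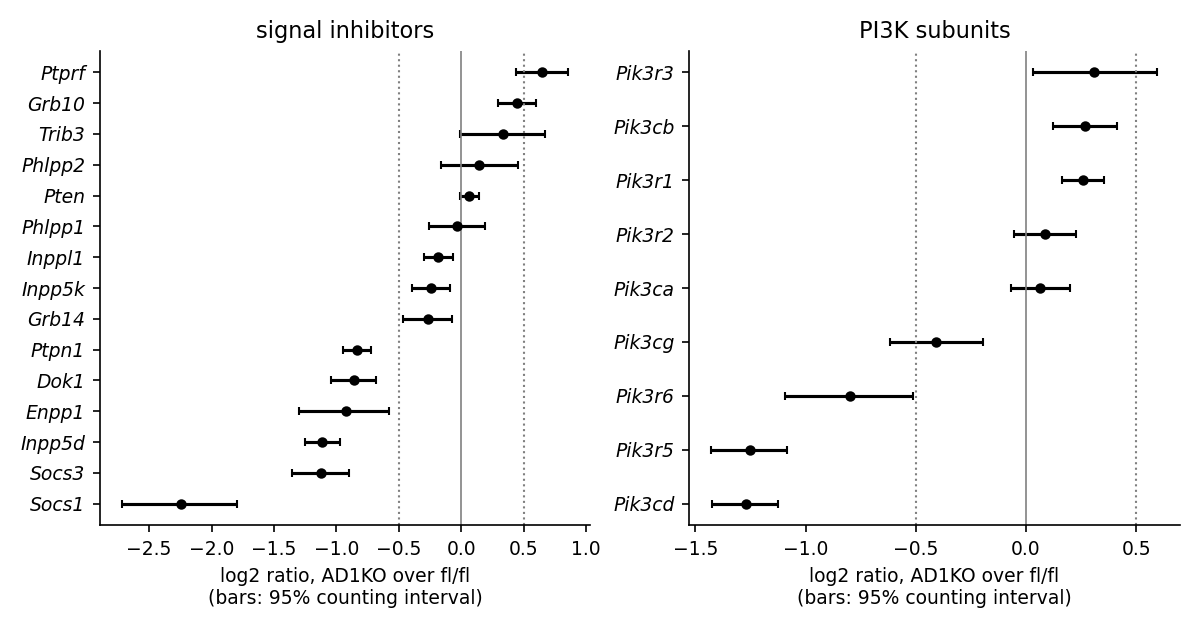
Log2 ratio of AD1KO over fl/fl for 15 inhibitors (left) and 9 PI3K subunits (right, on its own axis range), with 95% intervals for counting error and dotted lines at the limits. Socs1, at -2.25, is the lowest, and Pik3cd and Pik3r5 are the lowest of the PI3K subunits.

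Of 17 genes of GLUT4 vesicle traffic 1 was higher and 1 lower, with a median of 0.00. Sort1, the sorting protein sortilin of GLUT4 vesicles, stood at 33.9 FPKM in fl/fl and 48.3 FPKM in AD1KO, with a log2 ratio of 0.51 (0.46 to 0.57), and Stx4a, the syntaxin they fuse with, was at 57.5 and 42.6 FPKM, with a log2 ratio of -0.43. The lower gene was Tbc1d1, given above. Of 9 glucose transporters tested, 3 were higher, Slc2a4, Slc2a12 (0.37 and 1.08 FPKM, about 24 and 69 reads) and Slc2a2 (about 6 and 21 reads), and Slc2a6 was lower, at 3.24 and 1.95 FPKM. Slc2a4 was the most abundant of them in both libraries.

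Downstream of uptake, 11 genes of glycogen metabolism had a median of 0.26, where 14.3% of all tested genes were higher and 19.1% lower. Of the 11 genes, 5 were higher and 0 lower. Both sides of the pathway were among them. Gys1, glycogen synthase, was at 15.8 and 23.9 FPKM, with a log2 ratio of 0.60 (0.49 to 0.72), and the phosphorylases Pygb and Pygl, which break glycogen down, were at log2 ratios of 0.61 and 0.51. Pygm, the phosphorylase of muscle, had about 76 and 107 reads and a ratio of 0.50. Ppp1r3c, which targets a phosphatase to glycogen, was at 3.61 and 5.48 FPKM, with a log2 ratio of 0.60. Of 14 genes of the pyruvate dehydrogenase step, Pdk4 among them, 11 had ratios above 0 and 0 passed the limit, with a median of 0.31. Of 18 glycolysis genes 1 was higher and 2 lower. Pfkfb3, which makes the activator of phosphofructokinase, was at 72.0 and 111.6 FPKM, with a log2 ratio of 0.63, and Hk3, a hexokinase of leukocytes, fell by 2.00, from 40.0 to 9.98 FPKM. Aldoc, an aldolase, was the other lower gene, with about 38 and 16 reads. Hk2, the hexokinase of insulin-sensitive tissue, went in its ratio to Hk1 from 0.489 to 0.936, a log2 change of 0.94 (0.73 to 1.14). Hk1 itself was at 14.35 and 10.21 FPKM, with a log2 ratio of -0.49 (-0.63 to -0.35), and Hk2 had a log2 ratio of 0.44.

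FoxO targets had 4 higher and 0 lower of 16 tested, with a median of 0.27, where 14.3% of all tested genes were higher and 19.1% lower. Pck1, the enzyme of glyceroneogenesis in fat, was at 151.6 and 276.2 FPKM, with a log2 ratio of 0.87 (0.82 to 0.91), and Irs2 was another. The remaining 2, G6pc and Igfbp1, had 7 reads or fewer in each library, and the intervals of both held 0. Pnpla2, the lipase ATGL, was at 621.5 and 856.4 FPKM, with a log2 ratio of 0.46. The targets moved both ways, with 8 intervals wholly above 0 and 4 wholly below. Those above included Insr, Irs2 and Pdk4, which are also among the 9 genes compared here. Those below belonged to Sesn1 (-0.32), Ccng2 (-0.24), Cdkn1b (-0.19) and Bcl6 (-0.13). Of the 4 FoxO genes, Foxo1 and Foxo6 were higher, Foxo6 with about 11 and 21 reads and an interval that held 0.

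Among 9 genes listed as Slc2a4 promoter factors 2 were higher and 1 lower, with a median of 0.35. Among all tested genes 14.3% were higher and 19.1% lower. Klf15 stood at 8.51 FPKM in fl/fl and 15.7 FPKM in AD1KO, with a log2 ratio of 0.88 (0.70 to 1.08), and Mlxipl, the glucose-responsive factor ChREBP, was at 8.92 and 13.3 FPKM, with a log2 ratio of 0.58. Mef2c fell by 0.55, from 7.05 to 4.80 FPKM. Of 8 factors acting on Pdk4, Ppara alone was higher, at 0.56 and 1.00 FPKM from about 70 and 124 reads, and Pparg, the master regulator of adipocytes, was at 84.9 and 109.9 FPKM, with a log2 ratio of 0.37.

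**Figure D5:**
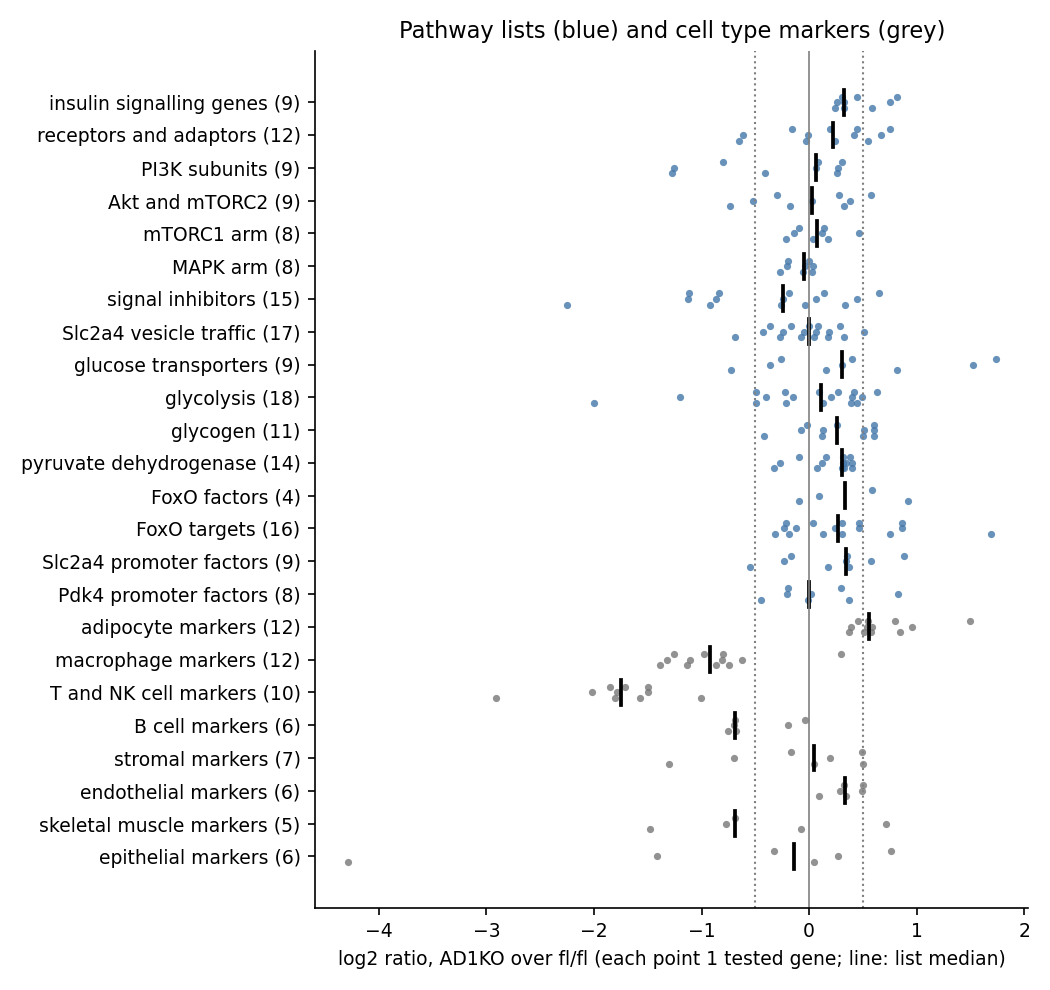
Log2 ratios of AD1KO over fl/fl for the genes of each list, 1 point a gene, with the median of each list and the limits of 0.5. The 9 insulin signalling genes all lie above 0, the inhibitors have a median of -0.24, and the adipocyte markers lie above 0 while most macrophage and T and NK cell markers lie below.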

How the data were processed

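RNA of gWAT was sequenced on a BGISEQ-500 as 1 pooled library a group. The authors deposited 1 table of FPKM values per gene, in which 0 was written as 0.01. The study states alignment to mm9, while the records of the series name both mm9 and mm10 across its samples. The aligner and quantifier are not given in the sources used here. The table also holds the provider's fold changes, P values and FDR values, which were not used. A gene was tested if it reached 0.1 FPKM in either library. Log2 ratios used a pseudocount of 0.01 FPKM and a limit of 0.5. Reads were estimated from the whole-read steps of low FPKM values and transcript length (length term 118 bases); 82.7% of 842 low values in fl/fl and 81.3% of 845 in AD1KO lay within 0.15 of a whole read, so read numbers are approximate. Clopper-Pearson intervals were computed for ratios, exact Poisson intervals for levels and conditional odds-ratio intervals for pairs. With 1 library a group, no test was made. The estimation was tested on simulated data. Matplotlib 3.10.9 drew the figures, and SciPy 1.17.1, pandas 2.3.3 and NumPy 2.4.6 under Python 3.11.15 did the rest. Positions come from GENCODE on mm9. The genes and lists were chosen with earlier results of these data known. From each list up to 4 genes past the limit with at least 1 FPKM and the largest ratios in size were named, and its most abundant gene in fl/fl. Irs3, Ptprf, Dok1, Pygm, Aldoc, Slc2a2, Foxo6, G6pc, Igfbp1, Sesn1, Ccng2, Cdkn1b and Bcl6 were named after their values were seen. Some genes that this rule names are not reported here. Alternatives were other pseudocounts, filters, limits and scalings, and reads without the length term.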

Additional observations from a re-analysis of the deposited data

How the results depend on the processing

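No paired analysis was possible because each group was 1 pooled library, and for the same reason no library could be left out. With the adipocyte markers' median set to 0, the count of higher genes among the 9 went to 0, their median log2 ratio to -0.23, the pathway lists to 3 higher and 78 lower genes, and the median of those lists to -0.48. Of the 15839 tested genes 817 were then higher and 9490 lower, against 2265 and 3029 before. At a limit of 1 in place of 0.5, 0 of the 9 genes were higher and the pathway lists had 3 higher and 7 lower. The share over all tested genes was not computed at that limit. Asking that the whole counting interval lie past 0.5 left 1 of the 9 higher, Slc2a4, against 4.19% of tested genes. With a pseudocount of 1 FPKM, 13 pathway genes and 2 of the 9 were higher, Irs2 being lost at 0.47, and 965 of all tested genes were higher. Upper-quartile scaling made 4 of the 9 higher, adding Irs1 at 0.53, and 2788 of all tested genes were higher. The cause of these differences was not tested beyond what each alternative does by construction. Scaling by trimmed means, upper quartiles or median ratios gave medians of 0.37, 0.41 and 0.36 for the 9 genes. Depth limits the genes with few reads, such as Irs2, and pooling leaves the spread between animals unknown.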

Other observations

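The MAPK and mTORC1 branches of insulin signalling held 0 genes past the limit, of 8 genes each, with median log2 ratios of -0.05 and 0.08. Mapk3, the kinase ERK1, stood at 118.0 FPKM in fl/fl and 118.2 FPKM in AD1KO, with a log2 ratio of 0.00 (-0.07 to 0.07). Eif4ebp1, the repressor of translation that mTORC1 switches off, was at 285.9 and 393.8 FPKM, with a log2 ratio of 0.46 (0.41 to 0.52).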
